A study of Homo sapiens with 6 samples.

Results

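The genes described here are 10 transcription factors that mark the lineage of hepatic stellate cells or belong to the forkhead genes of pericytes: NR2F2, GATA4, GATA6, LHX2, HAND2, TCF21, FOXF1, FOXF2, FOXS1 and WT1. They were taken by symbol from the deposited expression table, where all 10 were found among 20332 genes. RNA came from LX-2, an established human hepatic stellate cell line, and all 6 samples received TGF-β1. For 48 h, 3 samples had DMSO, a solvent, beside TGF-β1 and 3 had 10 µM of compound 11. The labels give the compound by number only; the series title is about myrsinane diterpenoids from Euphorbia prolifera as agents against liver fibrosis. No group lacked TGF-β1 among the samples used, and a single line is a limited model of stellate cells in the liver. Values are on the TPM scale of transcript abundance, which adjusts each gene for its length and each library to the same total.

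Stellate cells descend from the mesenchyme and mesothelium of the septum transversum, the tissue into which the liver bud grows. Transcription factors of that mesenchyme stay on in the adult cell, and several of them, studied mainly in mice, hold it in its quiescent, vitamin A-storing state or accompany its change into a matrix-producing myofibroblast. Each binds DNA through a family-specific domain: zinc fingers in GATA4, GATA6 and WT1, a LIM homeodomain protein in LHX2, basic helix-loop-helix domains in HAND2 and TCF21, forkhead domains in FOXF1, FOXF2 and FOXS1, and a nuclear receptor domain in NR2F2.

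With compound 11, FOXS1, which was measurable in all DMSO libraries, was listed at 0 in every library, and NR2F2 fell by 41.6%, GATA4 fell by 38.7% and FOXF1 fell by 35.3%. WT1 rose 1.4-fold. LHX2 and HAND2 were measurable and did not pass the test, and GATA6, TCF21 and FOXF2 were too low to be tested. Genes were tested with limma on log2(TPM + 1) where at least 3 libraries reached 1 TPM, a level filter that 7 of the 10 factors passed, and p-values were adjusted by Benjamini-Hochberg over all 12067 genes tested. Of the 7, 4 were called lower and 1 higher at an adjusted p of 0.05. FOXS1, among those called lower, passed the level filter through its DMSO libraries alone. A large part of the transcriptome differed between the groups: 49.6% of all genes tested were called, 24.3% lower and 25.3% higher. The median log2 fold change was -0.56 over the 7 factors and near 0 (-0.0013) over all genes tested; the median absolute log2 fold change was 0.56 and 0.23. The groups did not overlap for 5 of the 7, against 57.8% of all genes tested. FOXS1, whose call could only be lower, is counted in both medians over the 7 and among these 5.

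**Figure D1:**
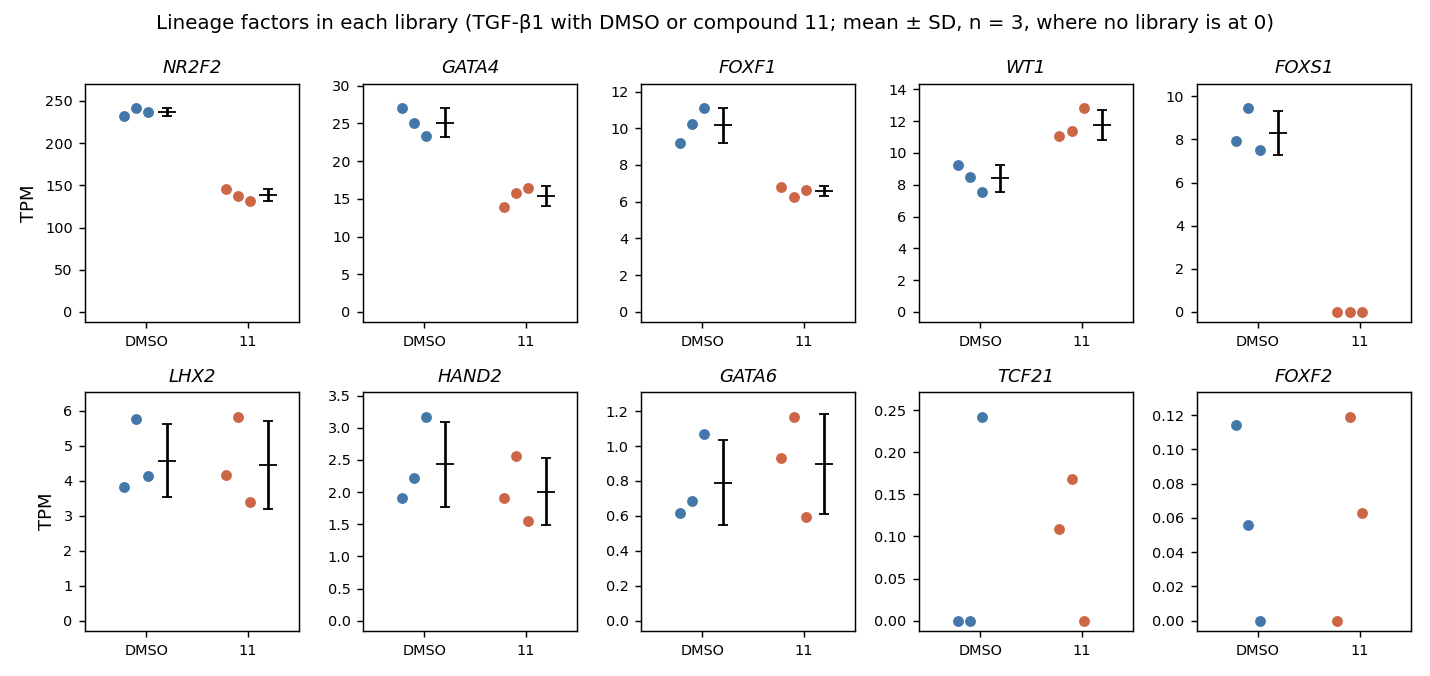
TPM (vertical axes, each from 0 on its own scale) of the 10 factors in the 3 DMSO libraries (blue) and the 3 compound 11 libraries (orange), with the mean ± SD beside groups in which no library is at 0. NR2F2, GATA4, FOXF1 and FOXS1 lie lower and WT1 higher in all compound 11 libraries, whereas the other 5 overlap.

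The libraries of a group lay close together. Across genes, which do not stand for replicates, Pearson's r was 0.993 to 0.994 for libraries of one group and 0.96 to 0.961 otherwise, and the values carry no sequencing depth. Whether replicates came from separate cultures is not in the labels, and the p-values reflect the spread of these libraries alone, possibly a technical one. In bulk RNA, fewer cells expressing a gene and less of its RNA per cell cannot be told apart.

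The labelled cell type was checked against 32 markers of stellate cells and pericytes, a list that also holds LHX2 and HAND2. Several defining ones were at or near 0: DES was listed at 0 in all 6 libraries, LRAT reached 0.028 TPM in 1 library and was listed at 0 in the others, and GFAP did not exceed 0.218 TPM. Of the markers shared with activated stellate cells and pericytes, some were present, CSPG4 at 38.1 ± 1.58 TPM in DMSO, PDGFRB at 26.5 ± 2.43 TPM and NGFR at 21.6 ± 0.652 TPM (SD, n = 3). Others were low in DMSO, THY1 at 1.52 TPM, NOTCH3 at 1.26 TPM, RGS5 at 1.18 TPM, MCAM at 0.924 TPM, PDGFRA at 0.405 TPM and CYGB at 0.184 TPM in the mean. Of the 15 markers tested, 4 fell and 3 rose with compound 11, with a median log2 fold change of -0.08. Of all genes tested, 24.3% were called lower and 25.3% higher. THY1, called lower, passed the level filter through its DMSO libraries alone, and RELN, called higher, through its compound 11 libraries alone. The direction of these calls was thus fixed by the filter. CCBE1, a secreted matrix protein, fell 3.36-fold and PDGFRB 2.71-fold, while the aminopeptidase ANPEP rose 2.42-fold. The summed level of the 32 markers was 257 to 266 TPM in DMSO and 170 to 183 TPM with compound 11. CCBE1, whose mean dropped from 125.3 TPM (DMSO) to 37.3 TPM (compound 11), dominates this difference. The sum thus does not stand for the list as a whole.

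The factors spanned a wide range of TPM levels, a scale that allows comparison between genes. In DMSO the order of mean TPM was NR2F2, GATA4, FOXF1, WT1, FOXS1, LHX2, HAND2, GATA6, TCF21 and FOXF2. The ranges of FOXF1 and WT1, of WT1 and FOXS1, and of TCF21 and FOXF2 overlapped, so these neighbours were not separated beyond their spread; all other neighbours in the order were. With compound 11, WT1 stood above FOXF1 with no overlap, and FOXS1, listed at 0, came last. The ranges of TCF21 and FOXF2 and of FOXF2 and FOXS1 overlapped, so the lowest ranks were not separated.

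NR2F2 was the most abundant of the 10. It encodes COUP-TFII, an orphan nuclear receptor of mesenchyme and venous endothelium. Its level was 232, 242 and 237 TPM in the DMSO libraries and 146, 138 and 132 TPM with compound 11. Every compound 11 library was thus below every DMSO library. NR2F2 fell 1.71-fold (log2 fold change -0.77 ± 0.04 SE, 95% interval -0.87 to -0.67, limma, Benjamini-Hochberg adjusted p = 8.07e-07). In DMSO its level exceeded that of 95.6% of the genes listed above 0, and with compound 11 that of 91.8%.

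NR2F1, the closest relative of NR2F2, did not fall with it. In DMSO it stood at 46.3 ± 0.63 TPM, and with compound 11 at 50.8 ± 0.626 TPM (SD, n = 3), a log2 fold change of 0.13 that missed the threshold (limma, adjusted p = 0.0526). The within-library log2 difference NR2F2 minus NR2F1 was 2.33 ± 0.01 in DMSO and 1.43 ± 0.09 with compound 11, a change of -0.9 (exact two-sided permutation test, p = 0.1, the smallest that 3 against 3 libraries allow). NR2F6, the third member of the subfamily, was at 16.1 and 16.9 TPM. By GENCODE v29 on GRCh38, NR2F2 spans 96325938 to 96340263 of chromosome 15, far from other listed coding genes, with MCTP2 1840 kb on one side and ARRDC4 1620 kb on the other. ARRDC4, an arrestin domain protein, also fell, from 24.2 ± 1.34 to 18.1 ± 0.813 TPM (log2 fold change -0.4, limma, adjusted p = 0.00174). An antisense gene, NR2F2-AS1, overlaps NR2F2, and since the use of strand in counting is not given, their reads cannot be told apart here.

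A promoter window of NR2F2 is shown because NR2F2 was the most abundant factor to fall. It belongs to the second of 2 RefSeq starts with a window available (GRCh38.p14, chr15:96333515-96333814, plus strand, 250 bases before to 50 after the start). Capitals mark a match to the E-box CANNTG, which basic helix-loop-helix proteins such as HAND2 and TCF21 recognise, and one to the GC box GGGCGG, read as CCGCCC on the other strand.
NR2F2: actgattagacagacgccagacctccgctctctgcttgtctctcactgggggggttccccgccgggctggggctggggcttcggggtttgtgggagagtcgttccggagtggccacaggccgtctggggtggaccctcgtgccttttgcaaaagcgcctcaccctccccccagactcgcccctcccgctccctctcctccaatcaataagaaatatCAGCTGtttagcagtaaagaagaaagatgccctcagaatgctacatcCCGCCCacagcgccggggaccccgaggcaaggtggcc
Of 35116 promoter windows of 300 bases, 68.7% hold an E-box and 45.0% a GC box on either strand, so neither match sets this window apart. Neither strand of it holds the letters searched for GATA factors, which were AGATAA. The same is true of the letters searched for forkhead factors, which were TGTTTAC, for SMAD proteins, which were CAGACA, for TEAD proteins, which were GGAATG, and for the AP-1 dimer, which were TGANTCA. The window of the other NR2F2 start, not shown, holds 2 E-boxes, each CACGTG. Both windows lie inside the GENCODE span of NR2F2, which begins at 96325938, and no available window covers that start. Which start these cells used was not measured. No window was available for GATA4, FOXF1 or FOXS1.

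FOXS1 is a forkhead factor found in pericytes and smooth muscle of mice. It was at 7.92, 9.45 and 7.5 TPM in the DMSO libraries and listed at 0 in all 3 compound 11 libraries. Without read counts, a failed estimate in those libraries and an absence of reads cannot be told apart. No other gene in the table was at 1 TPM or more in every DMSO library and at 0 in every compound 11 library, so this pattern was met by 1 gene of 20332. The fitted log2 fold change was -3.21 ± 0.14 SE (limma, adjusted p = 1.07e-07), the 7th lowest of the 12067 tested; with a group at 0 its size is set by the pseudocount of 1, and it was -9.69 with a pseudocount of 0.01. FOXS1 passed the level filter through its DMSO libraries alone. A call could thus only be lower, and its p-value and rank are no separate support. Among 43 forkhead genes of the table, those of the lineage factors included, FOXS1 was one of the moderately expressed ones in DMSO, at a level between those of FOXL1 and FOXO4, means of 9.3 and 7.7 TPM.

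FOXS1 lies on the minus strand of chromosome 20 at 31844301 to 31845619 (GRCh38, GENCODE v29), between MYLK2, 9.61 kb away, and DUSP15, 2.02 kb away. Both of these neighbours fell, though MYLK2 passed the level filter through its DMSO libraries alone, so its call could only be lower. DUSP15, a dual-specificity phosphatase, was at 9.53, 9.78 and 8.73 TPM in DMSO and 5.54, 4.52 and 3.98 TPM with compound 11 (log2 fold change -0.87 ± 0.12 SE, limma, adjusted p = 0.00034). MYLK2, the myosin light chain kinase of skeletal muscle, was lower still, at 1.64, 2.02 and 2.1 TPM in DMSO and 0.249, 0.261 and 0.494 TPM with compound 11 (log2 fold change -1.13 ± 0.16 SE, limma, adjusted p = 0.000309). The 3 genes whose centred log2 profile over the 6 libraries was nearest to that of FOXS1 were TAGLN, which encodes transgelin of smooth muscle (Euclidean distance 0.289), the collagen gene COL1A1 (0.392) and the matrix crosslinking enzyme LOX (0.392). TAGLN went from 713 to 85.6 TPM, COL1A1 from 1132 to 102 TPM and LOX from 281 to 33.8 TPM. Since the fitted size for FOXS1 is set by the pseudocount, this nearness holds for a pseudocount of 1 and is no measured likeness in the size of a fall.

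FOXF1 and FOXF2 are closely related factors of visceral mesenchyme and targets of Hedgehog signalling in the mouse, where FOXF1 acts in stellate cell activation. FOXF1 was at 9.19, 10.2 and 11.1 TPM in DMSO and 6.82, 6.27 and 6.64 TPM with compound 11. The groups were separate, and FOXF1 fell 1.55-fold (log2 fold change -0.56 ± 0.1 SE, 95% interval -0.79 to -0.32, limma, adjusted p = 0.00164). FOXF2, in contrast, was near the floor, at 0.114, 0.056 and 0 TPM in DMSO and 0, 0.119 and 0.063 TPM with compound 11. It did not pass the level filter, and its values overlapped (exact two-sided permutation test, p = 0.8). The within-library difference FOXF1 minus FOXF2 changed by -0.56 on the log2(TPM + 1) scale (exact permutation test, p = 0.1, but p = 0.3 and 0.6 with pseudocounts of 0.1 and 0.01); almost all of that change is FOXF1's.

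The forkhead genes next to FOXF1 moved the other way. FOXF1 lies on chromosome 16 at 86510527 to 86515418, and FOXC2 and FOXL1 start 56.3 kb and 65.8 kb beyond its start (GRCh38, GENCODE v29). FOXC2, a factor of vessel and lymphatic development, was at 17.3, 17.1 and 16.4 TPM in DMSO and 28.7, 27.9 and 26.8 TPM with compound 11 (log2 fold change 0.69 ± 0.07 SE, limma, adjusted p = 3.21e-05). FOXL1, a factor of gut mesenchyme in the mouse, rose from 8.59, 11.6 and 7.65 TPM to 31.3, 25.9 and 20.9 TPM (log2 fold change 1.39 ± 0.17 SE, limma, adjusted p = 0.000116). In DMSO, FOXF1 and FOXL1 were at like levels, their log2 difference being 0.13 ± 0.33, and with compound 11 FOXF1 was below FOXL1 by a log2 difference of -1.82 ± 0.27 (SD, n = 3; exact permutation test of the change, p = 0.1). For FOXF1 minus FOXC2 the difference went from -0.69 ± 0.16 to -1.93 ± 0.06 (exact permutation test, p = 0.1). These 2 contrasts were chosen after the values were seen. MTHFSD, which lies between FOXF1 and FOXC2, overlapped between groups (5.17 ± 0.929 and 4.84 ± 1.69 TPM).

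At the FOXF2 locus on chromosome 6 the pattern was partly alike. FOXC1, 214 kb from FOXF2, rose from 5.2 ± 0.203 to 8.96 ± 1.28 TPM (log2 fold change 0.68, limma, adjusted p = 0.00134). FOXQ1, on the other side, was too low to test, at 0 to 0.208 TPM in DMSO and 0.404 to 0.604 TPM with compound 11. Farther out, EXOC2, a subunit of the exocyst, rose (log2 fold change 0.29) and GMDS, an enzyme of fucose synthesis, fell (-0.41); the call of GMDS was lost in 3 of 15 alternative settings, each leaving out 1 library.

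**Figure D2:**
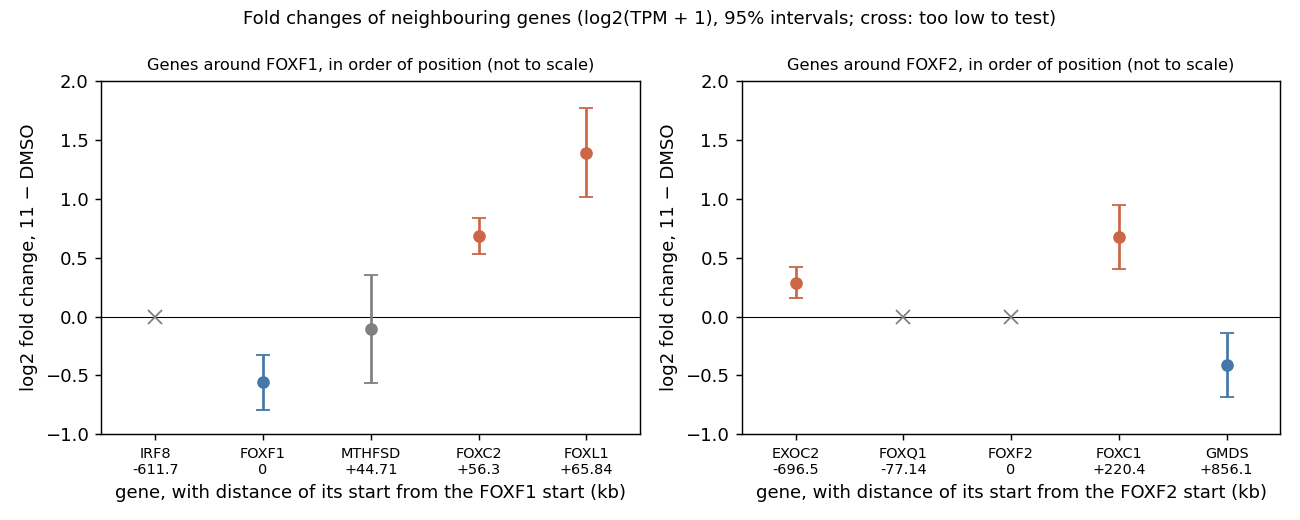
Log2 fold change (compound 11 minus DMSO, log2(TPM + 1) scale, limma, with 95% intervals) of genes around FOXF1 (left) and FOXF2 (right), in order of position with the distance of each start in kb; spacing is not to scale and crosses mark genes too low to test. FOXF1 lies below 0 while FOXC2, FOXL1 and FOXC1 lie above it.

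Across the other 40 forkhead genes the directions were mixed. Of the 17 that were tested, 7 rose and 4 fell, with a median log2 fold change of 0.23; 13 of the 40 were listed at 0 in every library. FOXM1, the factor of the mitotic programme and the most abundant forkhead gene, fell from 309 ± 2.06 to 196 ± 3.62 TPM. FOXD1, which in the mouse marks stromal progenitors of the kidney, fell 2.12-fold (log2 fold change -1.07 ± 0.06 SE, limma, adjusted p = 5.5e-07). FOXP1, the second most abundant, rose 1.22-fold.

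Hedgehog pathway genes, considered because that pathway induces FOXF1 and FOXF2 in mouse mesenchyme, showed no common direction. Of 17 tested, 2 rose and 3 fell, with a median log2 fold change of 0.06; the number called higher was 4 without DMSO replicate 1 and 4 with variances fitted without a trend. The ligands SHH, IHH and DHH did not pass the level filter. GLI1, whose transcript is a standard readout of the pathway, had 3.36 ± 1.05 TPM in DMSO, had 2.47 ± 0.456 TPM with compound 11, and did not pass (limma, adjusted p = 0.228). EVC and EVC2, membrane proteins of the cilium that act in the pathway, rose 1.55-fold and 1.79-fold, and HHAT, the acyltransferase that lipidates the ligands, fell 1.77-fold. GLI2, the most abundant of the GLI factors, was called lower (log2 fold change -0.36, limma, adjusted p = 0.0219), but its groups overlapped and the call was lost on leaving out any of 4 libraries.

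HAND2 and TCF21 are basic helix-loop-helix factors of mesenchyme, and HAND2 also shapes heart and limb. HAND2 was at 1.91, 2.21 and 3.17 TPM in DMSO and 1.91, 2.56 and 1.55 TPM with compound 11. The groups overlapped, and HAND2 did not pass (log2 fold change -0.19, 95% interval -0.6 to 0.23, limma, adjusted p = 0.437), so at this spread a fall of the size seen for FOXF1 (-0.56) lies within its interval. TCF21, which in the mouse deactivates stellate cells, was at 0, 0 and 0.242 TPM in DMSO and 0.109, 0.168 and 0 TPM with compound 11, below the level filter (exact permutation test, p = 1). TARID, an antisense gene, overlaps TCF21, and HAND2-AS1 overlaps HAND2.

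HAND2's promoter window (RefSeq, GRCh38.p14, chr4:173530180-173530479, minus strand) is given as an example of a member's window with a GATA match. Capitals mark an E-box that reads CACTTG near the start of the window, a match to the GATA letters that reads TTATCT on the strand shown, and 2 GC boxes, each of which reads CCGCCC.
HAND2: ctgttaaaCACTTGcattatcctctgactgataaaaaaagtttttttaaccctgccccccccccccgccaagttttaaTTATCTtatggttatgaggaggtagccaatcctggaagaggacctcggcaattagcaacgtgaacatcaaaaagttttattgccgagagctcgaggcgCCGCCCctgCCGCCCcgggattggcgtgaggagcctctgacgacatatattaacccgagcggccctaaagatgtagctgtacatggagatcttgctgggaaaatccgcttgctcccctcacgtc
AGATAA occurs on either strand in 10.3% of the 35116 windows. A match is a description of these letters, not a site at which a factor was measured.

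Several partners of HAND2 and TCF21 fell. Such factors bind DNA as dimers with E proteins, and ID proteins block those dimers. Of the 10 tested genes of class II helix-loop-helix factors, E proteins and ID proteins, 6 fell and 2 rose, with a median log2 fold change of -0.27; 1 rose without DMSO replicate 1 or 2. The E proteins on the list, 3 in number, fell: TCF4 1.79-fold (log2 fold change -0.83 ± 0.09 SE, limma, adjusted p = 4.55e-05), TCF12 1.21-fold and TCF3 1.16-fold. The inhibitors ID1, ID3 and ID2 fell too, ID1 from 80.2 ± 3.7 to 21.1 ± 1.42 TPM and ID3 from 143 ± 6.71 to 54.1 ± 3.6 TPM. TWIST2, a mesenchymal relative of HAND2, rose 1.23-fold, and TWIST1 was at 7.05 and 7.75 TPM and did not pass.

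LHX2, whose loss in mice activates stellate cells and causes liver fibrosis, was at 3.82, 5.76 and 4.13 TPM in DMSO and 4.15, 5.82 and 3.38 TPM with compound 11. Each group held 1 library near 6 TPM, and the ranges overlapped almost entirely. The log2 fold change was -0.04 (95% interval -0.47 to 0.39, limma, adjusted p = 0.882), and its sign turned when 1 of 2 libraries was left out. Its relative LHX9 fell from 9.02 ± 0.847 TPM to 3.33 ± 0.0847 TPM, or 2.71-fold (log2 fold change -1.21 ± 0.11 SE, limma, adjusted p = 1.88e-05). LDB2, a cofactor that links LIM domain proteins, fell 2.16-fold (limma, adjusted p = 3.63e-06), whereas its relative LDB1 was at 67 and 63.2 TPM and did not pass. LMO4, a LIM-only protein, rose 1.31-fold. In all, 1 of 8 tested genes on the LIM list rose (2 without DMSO replicate 3) and 2 fell, with a median log2 fold change of -0.03.

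WT1 was the factor that rose. It encodes the Wilms tumour zinc finger protein of mesothelium and kidney, and in mice WT1-positive mesothelium gives rise to stellate cells. Its level was 9.22, 8.49 and 7.52 TPM in DMSO and 11.1, 11.4 and 12.8 TPM with compound 11. All compound 11 libraries were above all DMSO libraries, a 1.4-fold rise (log2 fold change 0.44 ± 0.11 SE, 95% interval 0.2 to 0.68, limma, adjusted p = 0.00692). WT1 lies on chromosome 11 at 32387775 to 32435630 on the minus strand (GRCh38, GENCODE v29), and WT1-AS overlaps its first 113 bases. The coding genes on either side also rose, RCN1, 282 kb away and a calcium-binding protein of the endoplasmic reticulum, from 195 ± 11.2 to 242 ± 3.25 TPM, and EIF3M, 148 kb away and a translation initiation factor, from 219 ± 8.48 to 239 ± 4.99 TPM. Their log2 fold changes were 0.32 and 0.12 (limma, adjusted p = 0.00034 and 0.0282), where 25.3% of all genes tested were called higher. Coding neighbours of other members varied. Beside LHX2, which did not pass, NEK6 was called higher (limma, adjusted p = 0.0326) and DENND1A was not called. TBPL1, beside the untested TCF21, was called lower (limma, adjusted p = 0.0209). FBXO8 beside HAND2 and MIB1 beside GATA6 did not pass.

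Of 4 RefSeq starts of WT1 with a window available, the window of the outermost is shown (GRCh38.p14, chr11:32435490-32435789, minus strand), as the one window of a factor that rose. Capitals mark 3 E-boxes, each CAGCTG, and 1 GC box, CCGCCC.
WT1: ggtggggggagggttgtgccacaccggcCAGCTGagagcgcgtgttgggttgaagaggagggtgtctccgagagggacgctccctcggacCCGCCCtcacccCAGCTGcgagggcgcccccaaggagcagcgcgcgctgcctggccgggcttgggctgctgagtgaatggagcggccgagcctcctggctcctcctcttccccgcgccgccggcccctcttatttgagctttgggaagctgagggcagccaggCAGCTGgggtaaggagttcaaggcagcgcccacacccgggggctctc
This window is 70.0% G and C, against 62.0% for the NR2F2 window and 50.3% for the HAND2 window shown above. None of the 3 windows shown holds the letters searched for forkhead, SMAD, TEAD or AP-1 factors. Another window of WT1, starting at 32400351, which is not shown, holds 1 forkhead match, 2 TEAD matches and 1 AP-1 match.

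Genes tied to WT1 did not share its direction. Of 14 tested cofactors of WT1 and regulators of kidney and mesothelium, 1 rose and 4 fell, with a median log2 fold change of -0.07; 2 rose without DMSO replicate 2, without compound 11 replicate 2 and after quantile normalization. BASP1, a corepressor of WT1, was the most abundant of them at 651 ± 8.26 TPM in DMSO and 683 ± 23.1 TPM with compound 11 and did not pass. WTAP, a subunit of the RNA methyltransferase complex that was named for binding WT1, rose 1.19-fold. The homeodomain factor MEIS2 fell 1.93-fold (log2 fold change -0.91 ± 0.09 SE, limma, adjusted p = 2.54e-05). Mesothelial markers were mixed: several were at or near 0 in all libraries, MSLN up to 0.127 TPM and UPK3B and ITLN1 listed at 0. Others were clearly present. CALB2 averaged 23.2 TPM (DMSO) and 25.7 TPM (compound 11) and did not pass. The means of BNC1 were 40.25 and 33.1 TPM in the same order, and it was called lower (limma, adjusted p = 0.00338). The summed level of the 13 mesothelial markers, WT1 among them, was 1380 to 1396 TPM in DMSO and 387 to 421 TPM with compound 11, made up mostly of the keratins KRT8 and KRT18, which fell 5.7-fold and 3.01-fold and are not specific to mesothelium.

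GATA4 and GATA6 are zinc finger factors of heart, gut and septum transversum, and in mice GATA4 holds back stellate cell activation and liver fibrosis. GATA4 was at 27, 25 and 23.3 TPM in DMSO and 13.9, 15.7 and 16.5 TPM with compound 11. Groups were separate, and GATA4 fell 1.63-fold (log2 fold change -0.67 ± 0.09 SE, 95% interval -0.87 to -0.47, limma, adjusted p = 0.000214). GATA6 was far lower, at 0.615, 0.687 and 1.07 TPM in DMSO and 0.933, 1.17 and 0.594 TPM with compound 11. It missed the level filter and overlapped between groups (exact two-sided permutation test, p = 0.8). The within-library difference GATA4 minus GATA6 fell from 3.87 ± 0.29 to 3.12 ± 0.29 on the log2(TPM + 1) scale (SD, n = 3; exact permutation test, p = 0.1, but p = 0.2 with pseudocounts of 0.1 and 0.01). By GENCODE v29 on GRCh38, GATA4 spans 11676959 to 11760002 of chromosome 8 and GATA6 22169443 to 22202528 of chromosome 18. NEIL2, a DNA repair glycosylase 9.64 kb from GATA4, was at 6.28 ± 0.645 and 5.47 ± 1.15 TPM and did not pass.

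In the rest of the GATA family, GATA2, a factor of blood and endothelium, was at 28.3 ± 3.21 TPM in DMSO, a range that overlapped that of GATA4, and at 24.8 ± 3.99 TPM with compound 11, and it did not pass. GATA3 was called lower (3.46 ± 0.506 to 2.06 ± 0.652 TPM, limma, adjusted p = 0.0308), a call lost in 4 of 14 settings, 3 of which left out 1 library. GATA1 was listed at 0 throughout. GATAD1, a chromatin protein with a GATA-type finger, rose 1.43-fold, and GATAD2A, a subunit of the NuRD complex, was the most abundant of the list at 132 and 138 TPM and did not pass. TRPS1, a repressor with a GATA finger, rose 1.4-fold, with its call lost on leaving out either of 2 compound 11 libraries. Of the 8 tested genes of this list 2 rose and 2 were called lower, with a median log2 fold change of -0.06. The second called lower was ZFPM2, a cofactor of GATA factors (2.76 ± 0.172 to 1.85 ± 0.325 TPM), which lost its call in 6 of 14 settings. The number called lower was 0 without DMSO replicate 1, without DMSO replicate 2 and with a mean of at least 5 TPM, and it was 1 without DMSO replicate 3 or compound 11 replicate 1 or 2. The number that rose was 1 without compound 11 replicate 1 or 2.

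**Figure D3:**
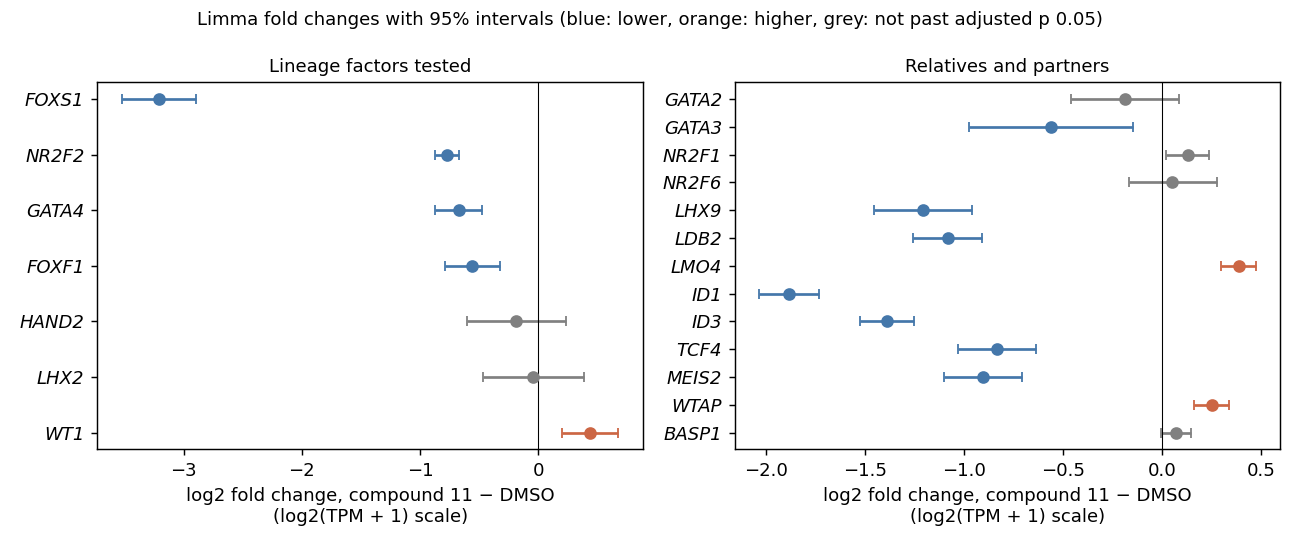
Log2 fold changes (compound 11 minus DMSO, log2(TPM + 1) scale) with 95% intervals from limma, for the 7 lineage factors tested (left) and for relatives and partners (right); blue is called lower, orange higher and grey not past an adjusted p of 0.05. FOXS1 lies at -3.21, NR2F2, GATA4 and FOXF1 between -0.77 and -0.56, and WT1 at 0.44.

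Nuclear receptors related to NR2F2 or to retinoid signalling included many that rose. Of 17 tested, 9 rose and 0 fell, with a median log2 fold change of 0.24. Of all genes tested, 25.3% were called higher and 24.3% lower. NR4A2 and NR4A3, which are among the 9, passed the level filter through their compound 11 libraries alone, so their calls could only be higher. NR2F2, which fell, is not on this list. NR4A1, an immediate early orphan receptor, rose from 4.39 ± 0.174 to 21.2 ± 1.18 TPM, PPARA, the receptor that controls fatty acid oxidation, 2.49-fold, and NR1H2, the oxysterol receptor LXR-beta, 1.54-fold. RARG was at 16.4 and 14.3 TPM and NR1H3 at 2.04 and 1.35 TPM, lower in the mean and not past the threshold. By limma at an unadjusted p under 0.05, 1 of the list, RARG, was lower, and 1 gene was called lower after adjustment in 4 of the 15 alternative settings. VDR, the most abundant of the list, was at 68.6 and 70.4 TPM and did not pass. RXRB and NR4A3, also called higher, each lost the call in 9 settings.

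**Figure D4:**
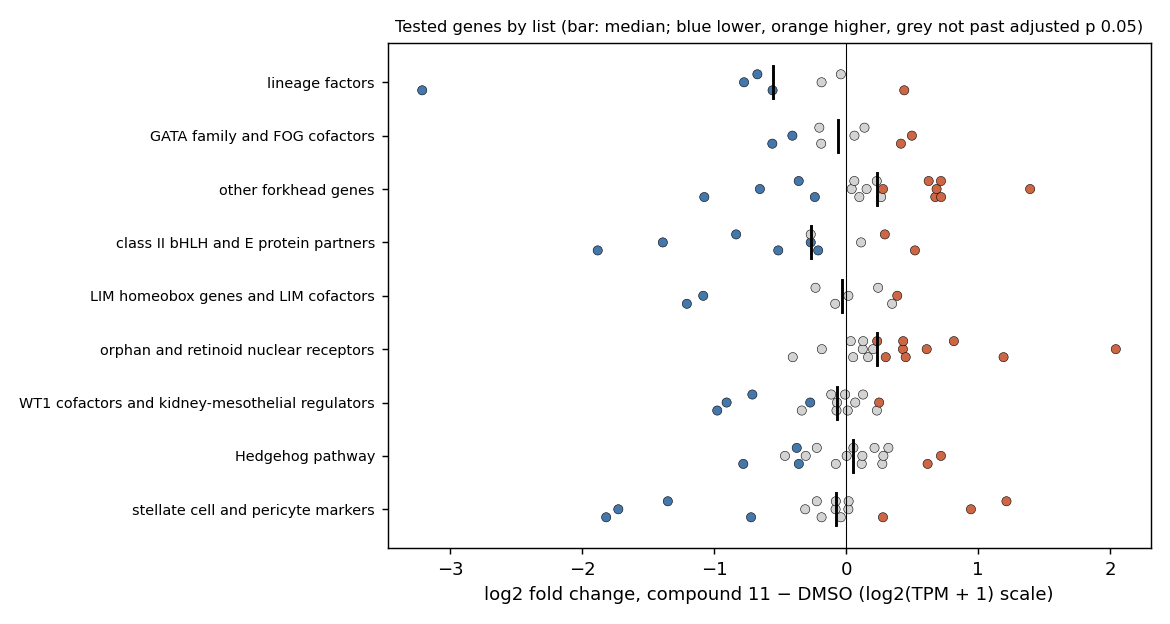
Log2 fold changes (compound 11 minus DMSO, horizontal axis, log2(TPM + 1) scale) of tested genes by list, 1 point per gene, with a bar at each median; blue points are called lower, orange higher and grey neither. The median of the lineage factors is -0.56, and those of the other 8 lists drawn lie between -0.27 and 0.24. The median of the factors includes FOXS1, which passed the level filter through its DMSO libraries alone and could only be called lower. The factors and lists were chosen with earlier results known, so the gap between the medians is no separate support. Lists of other cell types and of the FOXF neighbours are not drawn. Their medians are 2.25 (hepatocyte, 1 gene tested), 1.13 (endothelial), 0.48 (FOXF neighbours), 0.11 (macrophage and leukocyte), -0.27 (mesothelial) and -0.34 (cholangiocyte).

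The genes nearest to the remaining factors in centred log2 profile came from varied functions. For NR2F2 they were AMZ2, RELL1 and EVL (distances 0.0611, 0.0646 and 0.0994), for GATA4 FBXL5, TGFB1I1 and TRIM14 (0.0431, 0.122 and 0.123), for FOXF1 TSPAN15, GXYLT2 and ARHGAP19 (0.0952, 0.105 and 0.111) and for WT1 ADCK1, DGKD and CDC14B (0.0875, 0.115 and 0.118). The measure runs over 6 libraries in 2 groups and rests on fold changes of similar size.

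Many markers of other cell types that could bear on these factors were low, but others were not, and some moved with the groups. Mean levels in DMSO and with compound 11 were 23.6 and 34.6 TPM for SOX9, 3.73 and 21.8 TPM for SERPINA1 and 7.34 and 15.1 TPM for TIE1. GATA4 was at 25.1 and 15.4 TPM in the same order. Of 12 endothelial markers, considered because NR2F2 and GATA2 are also endothelial, TIE1, TEK, KDR and PECAM1 were tested and all 4 rose. Of all genes tested, 25.3% were called higher. PECAM1 passed the level filter through its compound 11 libraries alone, so its call could only be higher. The summed level of the 12 was 10.8 to 11.2 TPM in DMSO and 25.9 to 27.9 TPM with compound 11. CDH5 was at 0 to 0.153 TPM, and LYVE1 and SOX17 were listed at 0. The 12 hepatocyte markers summed to 4.42 to 5.59 TPM and 19.9 to 28.7 TPM, most of it SERPINA1, with APOA1 and HNF4A listed at 0 throughout. The 12 macrophage and leukocyte markers summed to 9.39 to 10.6 and 13.2 to 17.5 TPM, with PTPRC at most 0.426 TPM. Of the 4 tested, FCER1G rose from a mean of 1.44 to 6.4 TPM (limma, adjusted p = 0.00055). CSF1R rose from 3.245 to 5.09 TPM (limma, adjusted p = 0.00652), and LYZ and CD14 did not pass. The 10 cholangiocyte markers summed to 45.3 to 49.5 and 51.5 to 55.1 TPM, of which SOX9 held the largest part. Their part in the changes of the lineage factors was not tested.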

How the data were processed

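RNA-seq of 6 LX-2 samples, 3 per group, was analysed from the gene table deposited by the authors. Per the file headers its values are FPKM, but each deposited column has the same sum, that of TPM, and the values are treated as TPM. The submitters' processing notes name Bowtie 0.12.2, GRCh38.p12 and mm8, with no roles; strand use is not given in the sources used, and with depth unknown no counting error can be stated. The fit was limma 3.58.1 (R 4.3.3) with a variance trend on log2(TPM + 1), for genes reaching 1 TPM in at least 3 libraries. Tests were two-sided, and a call needed a Benjamini-Hochberg adjusted p under 0.05. Fold changes on this scale understate those of low genes. Differences between 2 genes within a library were compared by exact permutation in scipy 1.17.1. The limma step was tested on simulated data. The members and gene lists were chosen with earlier results of these data known. Genes named are the members, their paralogs, their nearest coding neighbours that were tested and some neighbours that were not. Also named are the 3 nearest profiles of members reaching a mean of 5 TPM in the higher group, and, from each list, up to 3 of the smallest adjusted p and up to 2 (cell type lists, 3) of the highest mean. Other genes named from the lists, among them ID2, TCF12, TWIST1, TWIST2, FOXO4, GATA1, ZFPM2, RARG, NR1H3, RXRB, NR4A3, the Hedgehog ligands and the low markers, were added for their role or after their values were seen. Positions are from GENCODE 29 on GRCh38 and promoter windows from RefSeq. Some genes of the lists are counted but not reported here by name.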

Additional observations from a re-analysis of the deposited data

How the results depend on the processing

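Across 15 alternative settings the number of genes called was 5204 to 6226, against 5984. The lineage factors called lower were 4 in each, except for 3 with a mean of at least 5 TPM, a filter that leaves out FOXS1, and 1 was called higher in each. Rescaling to the upper quartile gave 2775 genes higher and 3257 lower. Log2 fold changes ranged from -0.81 to -0.72 for NR2F2, -0.72 to -0.61 for GATA4, -0.62 to -0.5 for FOXF1, -9.69 to -3.12 for FOXS1 and 0.37 to 0.5 for WT1, and each of these kept its call wherever it was tested. LHX2 changed sign, to 0.108 without DMSO replicate 2 and 0.106 without compound 11 replicate 3, within a leave-out range of -0.214 to 0.108. The change in NR2F2 minus NR2F1 was -0.81 after quantile normalization, against -0.9; the cause was not tested. For FOXF1 minus FOXF2 the exact permutation p was 0.3 with a pseudocount of 0.1 and 0.6 with 0.01, and for GATA4 minus GATA6 it was 0.2 with both. Same-numbered libraries of the groups correlated at 0.0794, 0.149 and 0.0663 in their deviations from the group means, and since not all of these exceeded 0.1, the numbers were not taken to pair the samples; that each library correlated best with its own number is a hint of pairing from the data, not the design. With the replicate block 6226 genes were called, and the lineage factors still gave 4 lower and 1 higher. Depth is unknown, which limits statements on GATA6, TCF21 and FOXF2 and on the values of 0 for FOXS1.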
